A study of Mus musculus with 2 samples.

Results

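Transcripts of 8 genes of adrenal cortical steroid synthesis (Star, Cyp11a1, Cyp11b1, Cyp21a1, Hsd3b1, Akr1b7, Akr1c18 and Fdx1) were followed in leukocytes of the mouse adrenal gland. These members were listed by name for their role in the cortex, and they are 8 of the 32285 genes of the count tables, of which 20402 had at least 1 count. Live CD45+ cells, the leukocytes of the tissue, had been sorted from adrenal glands of C57BL/6 mice aged 7 weeks, without treatment, and their transcripts had been counted cell by cell in droplets (10x Genomics single-cell RNA-seq). There was 1 library from females and 1 from males, and the number of animals behind each was not given in the sources used here. With 1 library per sex no test across animals was possible and no p-value is given, and every interval is a 95% interval that covers counting error only. A count is a unique molecular identifier (UMI), which stands for 1 captured transcript read from its 3′ end.

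Steroid hormones of the adrenal are made by cortical cells and not, in the textbook account, by leukocytes. Star carries cholesterol to the inner mitochondrial membrane, where Cyp11a1 cleaves its side chain to give pregnenolone with electrons passed on by Fdx1, a ferredoxin that mitochondria of most cells also hold. Hsd3b1 converts pregnenolone to progesterone, Cyp21a1 hydroxylates it at carbon 21, and Cyp11b1 completes corticosterone in the zona fasciculata. Akr1b7, an aldo-keto reductase, clears aldehyde by-products of side-chain cleavage, and Akr1c18 inactivates progesterone and is known as a marker of the X zone, a transient inner cortical layer that is kept longer in females than in males.

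The genes lie on separate chromosomes apart from Cyp11a1 and Fdx1, which are both on chromosome 9. In the GRCm38 annotation Star is at chr8:25806555-25815982, Cyp11a1 at chr9:58006411-58027023 and Akr1b7 at chr6:34412334-34423142 on the plus strand. Cyp11b1 (chr15:74834125-74841643), Cyp21a1 (chr17:34801348-34804561), Hsd3b1 (chr3:98852194-98859794), Akr1c18 (chr13:4132615-4150654) and Fdx1 (chr9:51943306-51963556) are on the minus strand. Cyp11a1 overlaps a second annotated gene, Gm17322, on its own strand, so its counts are uncertain to that extent. Cortical promoters are classically bound by steroidogenic factor 1 (Nr5a1), whose extended half-site reads AAGGTCA. In the RefSeq promoter windows of GRCm38.p6 (250 bases before to 50 after a start), 5 of the 8 members were found, in 6 windows. Searched on both strands, these letters occurred in the Akr1b7 window alone, in reverse orientation, starting at -248, beside 4.72% of all 32851 windows. The windows of Akr1b7, as the member with the motif, and of Cyp11a1 and Akr1c18, as members with a class of their own in which they were high, are shown with the motif in capitals.
Akr1b7, chr6:34412112-34412411, plus strand: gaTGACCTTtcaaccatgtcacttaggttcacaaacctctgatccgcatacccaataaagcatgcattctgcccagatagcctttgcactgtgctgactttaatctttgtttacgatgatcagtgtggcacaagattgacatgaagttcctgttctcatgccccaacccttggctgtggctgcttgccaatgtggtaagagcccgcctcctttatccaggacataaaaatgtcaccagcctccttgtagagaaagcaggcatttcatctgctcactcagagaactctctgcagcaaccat
Cyp11a1, chr9:58014702-58015001, plus strand: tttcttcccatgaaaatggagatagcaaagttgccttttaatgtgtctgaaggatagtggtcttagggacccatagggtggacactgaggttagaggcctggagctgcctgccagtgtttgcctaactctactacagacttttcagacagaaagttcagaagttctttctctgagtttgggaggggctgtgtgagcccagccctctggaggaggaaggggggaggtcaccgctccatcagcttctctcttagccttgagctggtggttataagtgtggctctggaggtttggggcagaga
Akr1c18, chr13:4150597-4150896, minus strand: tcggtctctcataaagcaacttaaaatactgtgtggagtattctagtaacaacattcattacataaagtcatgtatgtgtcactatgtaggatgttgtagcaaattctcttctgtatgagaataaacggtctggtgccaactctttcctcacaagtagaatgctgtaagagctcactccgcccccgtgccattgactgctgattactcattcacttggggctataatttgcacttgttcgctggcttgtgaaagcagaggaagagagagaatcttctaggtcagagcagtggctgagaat

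Cells were assigned to 14 classes by the number of distinct canonical markers they held, with at least 3 markers and a lead of 2 over any other class. Of 3817 female and 2502 male barcodes that passed the filters, 3309 and 2149 were gated, with a median of 3561 and 2973 UMIs per cell. A lead exactly at the required size was held by 364 female and 218 male gated cells. Ptprc, the gene of CD45, was detected in 84.5% of female and 76.3% of male gated cells, and 36 female and 40 male cells carried endothelial markers in spite of the sort. The libraries shared 2 barcode sequences, which held 0 member UMIs. Gated cells held 2054 member UMIs in the female and 1296 in the male library, which is 148 (142 to 155) and 162 (153 to 171) counts per 1000000 UMIs (CPM).

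Outside mast cells and the few endothelial cells, the cortical transcripts were highest in macrophages as a group and low in T and natural killer (NK) cells. Neutrophils, from 17 female and 15 male member UMIs, and monocytes lay within or below the range of the macrophage subsets. Leaving out Fdx1, the other 7 members summed to 238 CPM (223 to 255) in the 916 female macrophages and to 23.4 CPM (20.4 to 26.8) in the 2097 female lymphocytes. In the male library they summed to 209 CPM (194 to 225) in 952 macrophages and 23.7 CPM (19.2 to 28.9) in 982 lymphocytes. The macrophage level was thus 10.2 times (8.76 to 11.9) the lymphocyte level in females and 8.81 times (7.11 to 11.03) in males. The lymphocytes were the deeper cells, with a median of 3732 and 3696 UMIs against 3522 and 2606. Member CPM was lower in the deepest than in the shallowest cells of both classes, and the part of depth in these ratios was not tested. Lymphocytes are not known to run the whole pathway, although type 2 helper T cells have been described with Cyp11a1, and their level is given here beside that of macrophages. T cells held 7 of the 26 lymphocyte Cyp11a1 UMIs in the female and 10 of the 17 in the male library. Against B cells, the lymphocyte class with the shallowest cells among the larger ones, the ratio was 5.83 (4.60 to 7.48) in females and 3.70 (2.69 to 5.22) in males.

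**Figure D1:**
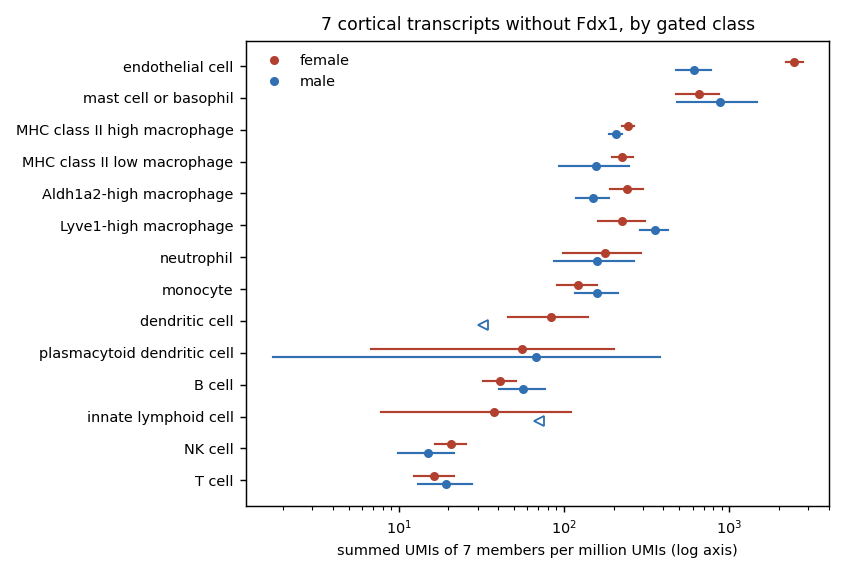
Summed CPM of the 7 members without Fdx1 (horizontal log axis) in each gated class (vertical axis) of the female and male libraries. Points are class sums and lines 95% counting intervals, and open triangles mark the limit that 0 counts allow. Macrophage subsets lie above the lymphocyte classes in both libraries, and the female endothelial point of 2479 CPM rests mostly on 1 barcode.

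The order of the classes was followed down neighbour by neighbour. In females, endothelial cells (2479 CPM) and mast cells or basophils (655 CPM) stood above the class that followed them by ratios whose interval left out 1. The female endothelial place rested on 1 barcode with 90.7% of the UMIs of its class, and without barcodes of 10 or more member UMIs endothelial cells were at 285 CPM (184 to 421), under the mast cells or basophils. MHC class II high (244 CPM), Aldh1a2-high (240 CPM), MHC class II low (226 CPM) and Lyve1-high macrophages (225 CPM) came next, and no neighbouring pair among them differed beyond counting error. Neutrophils (177 CPM), monocytes (121 CPM), dendritic cells (83.7 CPM) and plasmacytoid dendritic cells (55.7 CPM) followed, and then B cells (40.9 CPM), innate lymphoid cells (37.7 CPM), NK cells (20.8 CPM) and T cells (16.5 CPM), again with no step between neighbours whose interval left out 1. In the monocytes 1 barcode held 47.1% of the UMIs, and without barcodes of 10 or more member UMIs they were at 64.5 CPM (42.5 to 93.9), under the dendritic cells.

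In males, mast cells or basophils (879 CPM, from 6 cells) and endothelial cells (612 CPM) were again highest and were not separated from each other. Lyve1-high macrophages (355 CPM) stood 1.73 times (1.38 to 2.13) above MHC class II high macrophages (206 CPM), but 52 of the 106 UMIs of the Lyve1-high class came from 1 barcode with 0 Ptprc UMIs, and without barcodes of 10 or more member UMIs the levels were 183 (137 to 239) and 178 (162 to 196) CPM. Monocytes (159 CPM), neutrophils (158 CPM), MHC class II low (157 CPM) and Aldh1a2-high macrophages (150 CPM) were not separated, but the male monocytes too were lower, at 90.2 CPM (58.4 to 133), without barcodes of 10 or more member UMIs. In the male neutrophils 1 cell held 7 of the 14 UMIs. B cells (56.4 CPM) stood 2.91 times (1.76 to 4.86) above T cells (19.4 CPM). The 19 male dendritic cells held 0 UMIs of all 8 members, which allows up to 32.3 CPM, and the 12 male innate lymphoid cells held 0 UMIs of the 7, which allows up to 70.6 CPM.

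Star, which brings in the cholesterol, was read as 180 UMIs in female macrophages (48.4 CPM) and 57 in female lymphocytes (6.16 CPM), a ratio of 7.87 (5.81 to 10.8). In males there were 182 UMIs (54.5 CPM) against 26 (6.42 CPM), a ratio of 8.50 (5.61 to 13.4). Star was detected in 13.9% of female and 12.7% of male macrophages and in 2.38% and 2.24% of lymphocytes. The macrophage share thus lay well above the lymphocyte share in each library.

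Cyp11a1, the first enzyme of the pathway, reached 39.3 CPM in female and 39.5 CPM in male macrophages, against 2.81 and 4.196 CPM in lymphocytes. The ratio was 14.0 (9.18 to 22.1) in females and 9.42 (5.67 to 16.7) in males. Hsd3b1, the next enzyme, gave 205 UMIs in female macrophages against 35 in lymphocytes (ratio 14.6, 10.2 to 21.5), and 112 against 14 in males (9.71, 5.55 to 18.3). The ratio interval of all 3 genes of the early steps therefore lay above 1 in both libraries. It lay above 1 for 29.9% of female and 30.5% of male genes with at least 50 UMIs.

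Of the later enzymes, Cyp21a1 had the smallest ratio among the 7, at 6.23 (4.66 to 8.42) in females and 5.77 (3.69 to 9.37) in males, from 165 against 66 and 114 against 24 UMIs. Its female B cells held 31 of the 66 lymphocyte UMIs, in 25 cells. Cyp11b1, which completes corticosterone, gave 94 UMIs against 21 in females (11.2, 6.89 to 18.9) and 80 against 9 in males (10.8, 5.41 to 24.4). Its close paralog Cyp11b2, the aldosterone synthase of the zona glomerulosa, had 0 UMIs in the gated cells of both libraries, which allows up to 0.216 CPM in the female and 0.375 CPM in the male one.

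The aldo-keto reductases had the fewest UMIs of the members. Akr1b7 was read as 41 UMIs in female macrophages and 9 in lymphocytes (11.4, 5.43 to 26.6), and as 57 against 5 in males (13.8, 5.59 to 44.2). Akr1c18 gave 55 against 3 UMIs in females, a ratio of 45.7 (14.8 to 228), and 20 against 1 in males, a ratio of 24.3 (3.88 to 1006), the widest intervals of the members. In each library 7 of the 8 members were at least 2-fold higher in macrophages than in lymphocytes, where 17.5% of the 11610 genes compared in the female and 18.7% of the 10856 in the male library were.

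**Figure D2:**
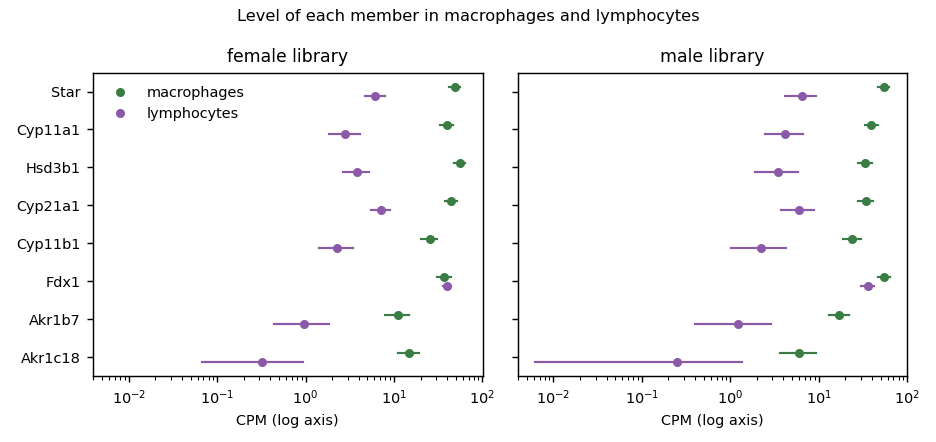
CPM of each member (log axis) in macrophages and lymphocytes of the female (left) and male (right) library, with 95% counting intervals as lines. The intervals of 7 members do not overlap between the classes in either library, and those of Fdx1 overlap in the female library. By a different criterion, a macrophage to lymphocyte ratio interval above 1, 29.9% of female and 30.5% of male genes with at least 50 UMIs were called.

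Fdx1 was the exception. It was read as 137 UMIs in female macrophages (36.9 CPM) and 373 in female lymphocytes (40.3 CPM), a ratio of 0.915 (0.747 to 1.12), and in males as 183 (54.8 CPM) and 146 (36.0 CPM), a ratio of 1.52 (1.22 to 1.90). It was detected in 14.8% of female and 11.9% of male lymphocytes, beside 13.2% and 13.9% of macrophages. Because Fdx1 made up 373 of the 590 member UMIs of female lymphocytes and 146 of the 242 of male lymphocytes, the sum of all 8 members differed less between the classes, by 4.32 times (3.90 to 4.79) in females and 4.41 times (3.82 to 5.11) in males.

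Cyp11a1 was high in mast cells or basophils as well, where the other 6 members without Fdx1 together gave 1 UMI in the female and 2 in the male library. Fdx1 gave 6 UMIs (85.4 CPM) there in the female and 2 UMIs (126 CPM) in the male library. The 24 female cells with mast cell or basophil markers held 45 Cyp11a1 UMIs in 17 cells, which is 640.5 CPM (467 to 857), and the 6 male cells held 12 UMIs in 4 cells, which is 754 CPM (389 to 1317). This was 16.3 times (11.4 to 22.9) the macrophage level in females and 19.1 times (9.61 to 34.4) in males. Star was at 0 UMIs in these cells, which allows up to 42.7 CPM in the female and 188 CPM in the male library, and Cyp11b1 was at 0 as well.

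The counts were spread over the cells, with at most 7 UMIs of Cyp11a1 in 1 female and 5 in 1 male cell. Of the 17 female cells with Cyp11a1, 1 held another of the 7 members (5.88%, 0.149 to 28.7), and of the 4 male cells 2 did (50%, 6.76 to 93.2). Of the 7 female and 2 male cells without Cyp11a1, 0 did. In macrophages with Cyp11a1 the share with another member was 62.3% (52.3 to 71.5) in females and 52.9% (41.9 to 63.7) in males. In macrophages without Cyp11a1 it was 32.7% (29.5 to 36.1) and 27.05% (24.1 to 30.15). The female mast cells or basophils with Cyp11a1 were deeper than those without it, with a median of 3143 against 1288 UMIs. The class was set apart after its values were seen, no Cyp11a1 read entered the gate, and mast cells and basophils were not separated from each other.

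Akr1c18 was divided differently over the macrophages. In the Aldh1a2-high subset, which was gated on Aldh1a2, Retnla, Lyz1, Fn1, Ear2 and Fcrls, it gave 16 UMIs in 11 of 88 female cells (48.1 CPM) and 19 UMIs in 16 of 114 male cells (37.0 CPM). In all other macrophages it gave 39 UMIs in 24 of 828 female cells (11.5 CPM) but 1 UMI in 838 male cells (0.354 CPM). The libraries therefore did not separate inside the Aldh1a2-high subset, at a female to male ratio of 1.30 (0.625 to 2.67), and stood apart outside it, at 32.6 (5.51 to 1319).

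Within the male library the Aldh1a2-high level was 104 times that of the other macrophages, with an interval of 16.6 to 4344, while the other 6 members together were lower there (0.516, 0.387 to 0.675). In females the ratios were 4.17 (2.18 to 7.64) for Akr1c18 and 0.848 (0.647 to 1.10) for the 6. Among Aldh1a2-high cells with Akr1c18, another of the 7 members was present in 2 of 11 female cells (18.2%, 2.28 to 51.8). It was present in 3 of 16 male cells (18.8%, 4.05 to 45.65). In the Aldh1a2-high cells without Akr1c18 the shares were 28.6% (18.85 to 40.0) and 22.4% (14.6 to 32.0), with overlapping intervals. Outside the subset another member was present in 15 of the 24 female cells with Akr1c18 (62.5%, 40.6 to 81.2). There the share was 39.1% (35.7 to 42.5) in the cells without Akr1c18, and these intervals overlapped as well. The cells with Akr1c18 were deeper in each of these sets, with a median of 6109 against 2787 UMIs in the female and 5280 against 3171 UMIs in the male Aldh1a2-high subset.

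**Figure D3:**
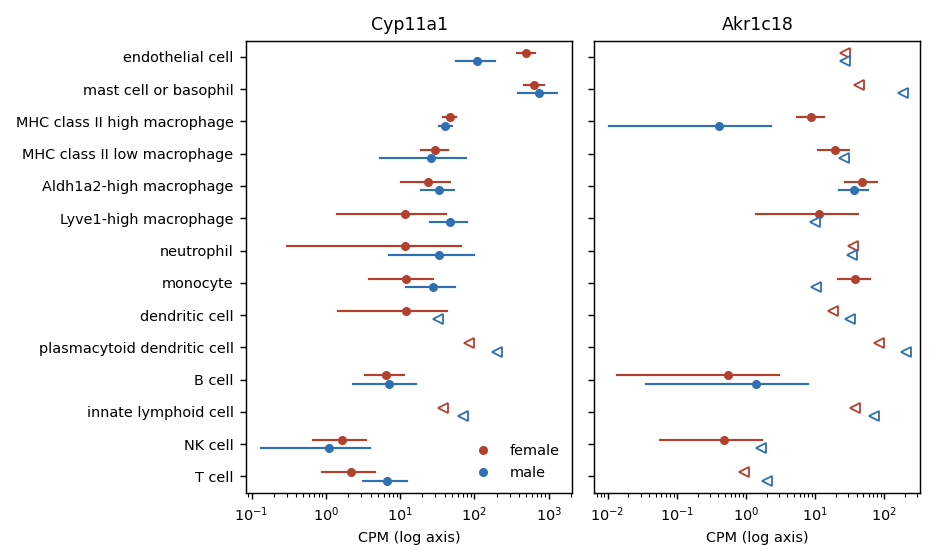
CPM of Cyp11a1 (left) and Akr1c18 (right) on log axes in each class of the female and male libraries, with 95% counting intervals as lines and open triangles at the limit that 0 counts allow. Cyp11a1 is highest in mast cells or basophils in both libraries, at 640.5 and 754 CPM, and Akr1c18 is highest in Aldh1a2-high macrophages, at 48.1 and 37.0 CPM.

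The female monocytes also showed 16 Akr1c18 UMIs (38.1 CPM), but 14 of them lay in 1 barcode. The male monocytes held 0, which allows up to 10.3 CPM. Paralogs of Akr1c18 were present at their own levels, Akr1c13 with 211 female and 162 male UMIs in gated cells, so reads that match more than 1 aldo-keto reductase could have moved counts between them, which was not tested.

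The mix of the 7 members was compared between classes as each gene's share of their summed UMIs. In female macrophages Hsd3b1 made up 23.1%, Star 20.3%, Cyp21a1 18.6%, Cyp11a1 16.5%, Cyp11b1 10.6%, Akr1c18 6.21% and Akr1b7 4.63%. In female lymphocytes Cyp21a1 led with 30.4% (24.4 to 37.0), above its macrophage share of 18.6% (16.1 to 21.4), and Akr1c18 fell to 1.38% (0.286 to 3.99). The intervals of the other 5 shares overlapped between these classes. Without barcodes of 10 or more member UMIs the lymphocyte share of Cyp21a1 was 27.6% (21.3 to 34.6), equal to that of Star, and its interval overlapped that of macrophages (19.9%, 17.1 to 23.0).

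In the male library Star led in both classes, with 26.1% (22.9 to 29.5) in macrophages and 27.1% (18.5 to 37.1) in lymphocytes, and the intervals of all 7 shares overlapped. Barcodes that had failed the filters carried a mix led by Cyp21a1, at 26.1% (37 UMIs) in females and 28.1% (36 UMIs) in males. Akr1c18 was 7.75% of it in the female library (11 UMIs) and 0 in the male one, which allows up to 15.7 CPM there.

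**Figure D4:**
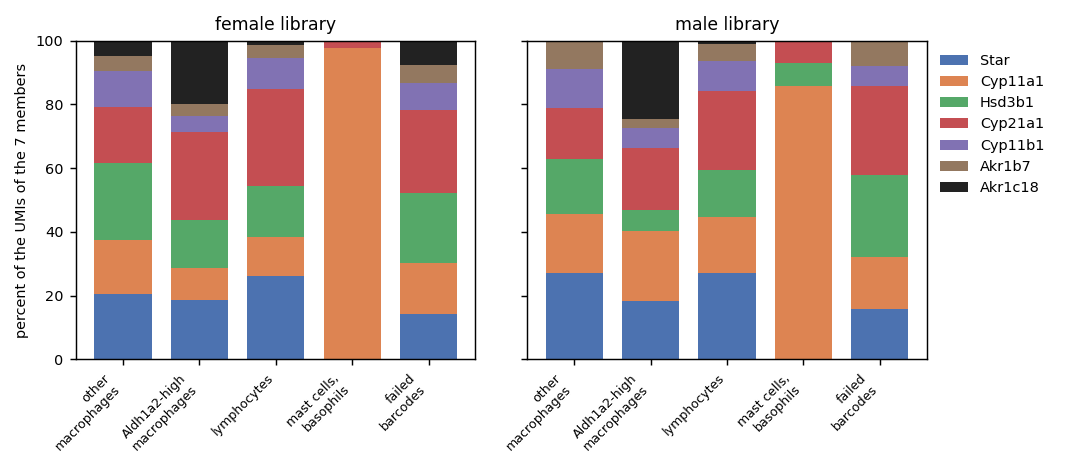
Share of each gene in the summed UMIs of the 7 members (vertical axis, percent) in macrophages outside the Aldh1a2-high subset, Aldh1a2-high macrophages, lymphocytes, mast cells or basophils, and barcodes that failed the filters. Akr1c18 takes its largest share in Aldh1a2-high macrophages of both libraries, and Cyp11a1 takes 97.8% and 85.7% in mast cells or basophils.

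With the depth of the cell the members rose by more UMIs per cell in macrophages than in lymphocytes. From the bin of 1000 to 2000 UMIs to that of 8000 and over, the 7 members went from 0.484 (0.381 to 0.606) to 2.26 (1.92 to 2.64) UMIs per female macrophage. Per male macrophage they went from 0.414 (0.336 to 0.504) to 1.71 (1.42 to 2.05). In the bin of 500 to 1000 UMIs they were at 0.493 (0.347 to 0.680) and 0.264 (0.186 to 0.364). In female lymphocytes they stayed between 0.0762 and 0.0971 up to 8000 UMIs and were 0.290 (0.218 to 0.377) above that. In male lymphocytes they lay between 0.0490 and 0.153 without an order. As CPM, macrophages were lower in the deepest than in the shallowest bin, at 207 against 704 in females and 161 against 374 in males. So were lymphocytes, at 25.2 against 124 and 13.8 against 121, from 3 and 2 UMIs in the shallowest bin. S100a8 and S100a9, abundant transcripts of neutrophils, were read at 0.0800 to 0.102 UMIs per female macrophage over all 5 depth bins. Their macrophage level was 1.27 times (0.962 to 1.66) that of lymphocytes in females and 1.25 times (0.926 to 1.70) in males. The pair was higher in Lyve1-high macrophages, at 3.604 times (1.76 to 6.62) and 2.47 times (1.35 to 4.23) the lymphocyte level, and in female Aldh1a2-high macrophages, at 2.73 times (1.52 to 4.57). The full list of neutrophil markers was 3.12 times (2.29 to 4.34) and 4.38 times (2.77 to 7.35) higher in macrophages than in B cells. The pair was chosen after its values had been seen, and the part of free RNA in the member counts was not tested.

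**Figure D5:**
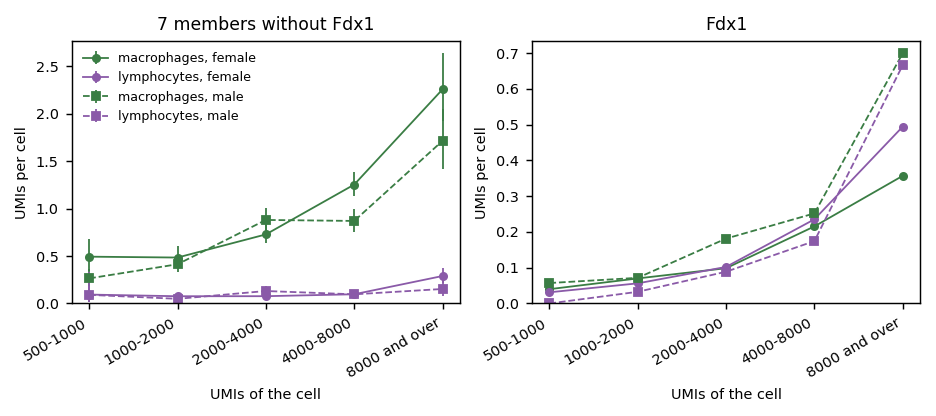
UMIs per cell (vertical axis) of the 7 members (left) and of Fdx1 (right) in macrophages and lymphocytes binned by the total UMIs of the cell, for both libraries; bars on the left are 95% counting intervals. The 7 members climb with depth in macrophages, from 0.484 to 2.26 in females, and stay near the bottom in lymphocytes up to 8000 UMIs, while Fdx1 climbs in both classes.

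To compare shares of cells at 1 depth, each cell with at least 1000 UMIs was thinned to 1000. After this draw 21.8% (19.0 to 24.7) of 841 female and 21.2% (18.4 to 24.2) of 812 male macrophages held a UMI of any of the 8 members, against 5.91% (4.93 to 7.01) of 2065 and 5.21% (3.89 to 6.81) of 960 lymphocytes. Undrawn, the shares were 46.4% and 41.0% against 19.9% and 17.8%. Over all gated cells 10.8% of female and 12.9% of male cells held a member after the draw, and 1.65% and 2.40% held 2 or more different members.

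Within macrophages the members were found together in the same cells more often than the product of their shares gives. In cells of 2000 to 8000 UMIs, all 20 pairs of the 7 members for which the product came to at least 1 cell were above it in females, with a median of 2.36 times, and 15 of 19 pairs were in males, with a median of 2.52 times. As an example, Hsd3b1 was found in 35.2% of the 91 female macrophages with Star and in 12.6% of those without, and Cyp11a1 in 26.0% of the 77 male macrophages with Star and 6.78% of those without. Pairs with Fdx1 had lower medians, 1.45 and 1.385 times. Depth still varied within the window, and its part in these values was not tested. Pairs of genes outside the members were not compared, so how often any pair lies above the product is not known. The macrophages with the most member UMIs were not left out of these counts.

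In the male library all 4 pairs below the product joined Akr1c18 to Star, Cyp11a1, Cyp21a1 or Hsd3b1. At least 3 of the 7 members were detected in 61 female macrophages (6.66%, 5.13 to 8.47) and 44 male macrophages (4.62%, 3.38 to 6.15), and in 9 female (0.429%) and 1 male lymphocyte (0.102%). No macrophage held all 7, and 4 female and 2 male macrophages held 6.

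A small number of barcodes carried much of the signal. Of those that passed the filters, 19 female and 14 male barcodes held 10 or more member UMIs, and together these held 22.1% and 26.5% of the member UMIs of the barcodes that passed. Ptprc was at 0 UMIs in 2 of the 19 and 6 of the 14. The highest female barcode was gated as endothelial and held 257 member UMIs, among them 99 of Hsd3b1, 73 of Cyp21a1 and 48 of Cyp11a1, in 21186 UMIs. The highest male barcode, with 155 member UMIs, passed no gate. Neither held a Ptprc UMI, and each also carried transcripts of other cortical genes (30 and 27 UMIs over 6 genes).

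Without these barcodes the 7 members stood at 285 CPM (184 to 421) in female and 423 CPM (310 to 565) in male endothelial cells. The macrophage level was then 207 CPM (192 to 222) in females and 171 CPM (157 to 185) in males, and the lymphocyte level 20.0 CPM and 23.7 CPM. Over all macrophages, these barcodes included, the counts were uneven: 59.5% of female and 66.3% of male macrophages held 0 UMIs of the 7, and the top 5% of cells held 39.8% and 46.5% of the UMIs.

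Other genes of the cortex were looked at through a list of 20, of which 9 in the female and 8 in the male library had at least 50 UMIs in gated cells. The interval of the macrophage to lymphocyte ratio lay above 1 for 6 of the 9 and 5 of the 8, where 29.9% of the 10377 female and 30.5% of the 9459 male genes with at least 50 UMIs lay above. It lay below 1 for 1 male gene, where 33.4% of all genes did. That gene was Tspo, a cholesterol-binding protein of the outer mitochondrial membrane found in many cells. Scarb1, the receptor that takes up cholesterol from high-density lipoprotein, followed the members with 117 against 30 UMIs in females (ratio 9.72, 6.46 to 15.04) and 140 against 15 in males (ratio 11.3, 6.64 to 20.8). Mrap, the partner of the corticotropin receptor, gave 45 against 5 UMIs in females and 11 against 2 in males. Soat1 and Dab2, which macrophages are themselves known to express, were also among those above 1.

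Relatives of the members did not share a single pattern. Of 18 listed, 17 were in the tables, and 7 had at least 50 UMIs in each library, with intervals above 1 for 4 in females and 5 in males, beside the 29.9% and 30.5% of all genes, and below 1 for Stard4, a cytosolic sterol carrier, in both, beside 36.3% and 33.4%. Fdx2, the ferredoxin of iron-sulfur cluster assembly, lay at 1.12 (0.922 to 1.36) and 0.850 (0.670 to 1.08), and Akr1b3, the common aldose reductase, at 1.16 (1.04 to 1.30) and 1.19 (1.05 to 1.36). The other Hsd3b genes listed had at most 2 UMIs each in a library.

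Transcripts of other adrenal cells were also higher in macrophages than in lymphocytes, though some other classes were higher still. The list of 11 genes of chromaffin cells, the catecholamine cells of the medulla, was 4.73 times (3.42 to 6.599) higher in female and 2.39 times (1.57 to 3.70) higher in male macrophages than in lymphocytes, at 30.1 against 6.37 CPM and 20.7 against 8.64 CPM. Ddc alone made 36 and 17 of the lymphocyte UMIs, and without it, a choice made after its values were seen, the ratios were 11.9 (7.55 to 19.6) and 4.52 (2.65 to 8.08). The 10 stromal genes gave 3.22 times (1.83 to 5.73) and 6.40 times (3.33 to 13.5), from 31 against 24 and 58 against 11 UMIs, with 28 of the 58 in 1 barcode. In neutrophils the stromal list was at 70.7 CPM (6 UMIs) in females and 113 CPM (10 UMIs) in males, above the 8.34 and 17.4 CPM of macrophages. In female dendritic cells the chromaffin list was at 89.7 CPM, from 15 UMIs with 8 in 1 cell, and in male ones at 21.5 CPM from 2 UMIs. None of the chromaffin or stromal genes reached 50 UMIs in a library, and Cartpt was at 0 in both, which allows up to 0.216 and 0.375 CPM. In monocytes the chromaffin list was at 1.12 times (0.225 to 3.44) and 0.399 times (0.00983 to 2.38) the lymphocyte level, and in neutrophils it had 0 UMIs, which allows up to 35.3 and 34.0 CPM. Against B cells it was 13.8 times (5.25 to 51.6) higher in female macrophages and 1.33 times (0.700 to 2.79) in male ones. The haemoglobin genes were at 9.42 CPM in female and 14.98 CPM in male macrophages, between 7.06 and 9.37 CPM in B and T cells of both libraries, and at 854 and 1080 CPM in NK cells, where 1 barcode held 3546 and 1937 of the UMIs. The part of these cell types in the member counts was not tested.

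Between the libraries the 8 members together differed little, at a female to male ratio of 0.915 (0.853 to 0.981) over all gated cells, but single genes went in opposite directions. Akr1c18 was 2.03 times (1.24 to 3.48) higher in the female library and Hsd3b1 1.34 times (1.11 to 1.63), while Akr1b7 stood at 0.499 (0.352 to 0.707), Star at 0.681 (0.571 to 0.813) and Cyp11b1 at 0.684 (0.522 to 0.897). These ratios pool all classes, and the mix of classes differed, with macrophages 916 of the 3309 female and 952 of the 2149 male gated cells. The part of this mix in the ratios was not tested. The Hsd3b1 value rested on the endothelial barcode and was 0.993 without barcodes of 10 or more member UMIs. Without those barcodes Akr1c18, with 14 female UMIs in 1 monocyte barcode, stood at 1.54 (0.920 to 2.68). The interval left out 1 for 5 of the 8 members and for 31.8% of the 12840 genes compared. Of the members, Akr1c18 alone was 2-fold or more higher in the female library, where 1.57% of the genes were, and Akr1b7 alone was 2-fold or more higher in the male library, where 3.47% were.

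Within macrophages Cyp21a1 was 1.30 times (1.02 to 1.67), Hsd3b1 1.64 times (1.30 to 2.09) and Akr1c18 2.47 times (1.46 to 4.35) higher in the female library, and Akr1b7 (0.646, 0.422 to 0.982) and Fdx1 (0.672, 0.535 to 0.844) were lower. Star (0.888, 0.719 to 1.10), Cyp11a1 (0.993, 0.780 to 1.27) and Cyp11b1 (1.05, 0.775 to 1.44) were not separated between the libraries in macrophages. The share of all genes whose interval left out 1 was not computed within macrophages. Over all gated cells it was 31.8%. Without barcodes of 10 or more member UMIs, Akr1b7 was at 9.392 CPM (6.504 to 13.12) in female macrophages. In male macrophages it was at 12.74 CPM (9.179 to 17.22). These intervals overlapped, as did those of Cyp21a1 and Fdx1, while those of Hsd3b1 and Akr1c18 did not. Within macrophages the ratios were not computed without these barcodes. In lymphocytes no member was separated, with Star at 0.959 (0.593 to 1.59) and Cyp11b1 at 1.02 (0.448 to 2.53). Sex, animal and library cannot be told apart in this design.

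The genes whose level over the 28 class sums of both libraries was most like the summed members were Taok1, Cd93, Anks1, Rhob, Tns1, Daam1, Bmpr2, Camk1, Sypl and Klf7. Their Pearson r on log2(CPM + 10) ran from 0.799 down to 0.743 among 8315 genes, as a description, since the classes of a library share its depth and free RNA. The female endothelial sum, the highest female one, rested mostly on 1 barcode, and the likeness was not computed without it.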

How the data were processed

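CD45+ cells of 7-week-old female and male C57BL/6 mice were compared, with 1 library per sex. The deposited values are raw UMI counts per gene and barcode, which the authors made with Cell Ranger 4.0.0 on mm10 and from which they removed noise barcodes with DropletUtils 1.4.3. The annotation release is not given in the sources used here. No cell annotation was used here.

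Barcodes with at least 200 genes and at most 15% mitochondrial UMIs were kept. The study's stated ceiling of 1.2% kept 327 of 3963 female and 359 of 2685 male barcodes and was run as an alternative. Cells were gated on marker lists. Barcodes with at least 3 markers of 2 classes and too short a lead (254 female, 155 male) were set aside. So were those with too few markers or otherwise too short a lead (254 and 198). This took the place of a doublet caller. Macrophage subsets needed 3 subset markers, and the rest were split at 10 MHC class II UMIs per 1000. UMIs were summed per class and divided by the class total (CPM). Intervals are exact Poisson for CPM, Clopper-Pearson for shares and conditional binomial for ratios; a count of 0 was given a limit of 3 counts. UMIs of 1 library share its free RNA, so intervals cover counting error only. The named genes were all 8 members in every class, listed relatives and other cortical genes with at least 50 UMIs, and the 10 genes most like the sum among genes with at least 200 UMIs that marked no class. The ratio and draw steps were checked on simulated counts. The members, lists and tests were chosen with earlier results of these data known. Alternatives were other mitochondrial ceilings, gates, depth and member limits. Python 3.11.15, numpy 2.4.6, scipy 1.17.1 and pandas 2.3.3 were used.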

Additional observations from a re-analysis of the deposited data

Results flagged for a closer look

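Fdx1 lay on opposite sides of equality between macrophages and lymphocytes in the 2 libraries, at a ratio of 0.915 in the female and 1.52 in the male library. The difference between these ratios was not tested, and the female interval includes 1.

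Member transcripts were also read in barcodes outside the gated classes. Barcodes with markers of more than 1 class held 142 CPM of the 8 members in the female and 117 CPM in the male library. Barcodes below the gates held 103 CPM and 517 CPM, and 1 barcode gave 155 of the 281 member UMIs of the male value. Barcodes that failed the filters on genes or mitochondrial reads held 902 CPM (764 to 1057) and 858 CPM (732 to 1000).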

How the results depend on the processing

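The summed member level of 148 CPM in the female and 162 CPM in the male library became 117 and 138 CPM under a 5% mitochondrial ceiling, 127 and 125 CPM under 1.2%, 116 and 137 CPM without cells of 10 or more member UMIs, 108 and 117 CPM without Fdx1, and 121 and 135 CPM in cells with a Ptprc UMI. With mixed and ungated barcodes the male value was 179 CPM. The macrophage to lymphocyte ratio of all 8 members (4.32 and 4.41) was 1.91 and 2.74 under the 1.2% ceiling and 10.2 and 8.81 without Fdx1; it was 3.51 in the female library under 5% and 3.69 in the male library without the high barcodes. The drawn share of cells with a member (10.8% and 12.9%) was 9.19% in females under 1.2%, 7.53% and 9.55% without Fdx1, and in males 11.35% under 5% and 11.25% with Ptprc. The share with 2 or more members (1.65% and 2.40%) was 1.08% and 0.901% under 1.2%. Akr1c18 made 18.6% and 20.2% of the member UMIs of Aldh1a2-high macrophages, and 28.6% and 37.9% under 1.2%. The number of members whose female to male interval left out 1 was 5, and 0 under 1.2% and 2 with Ptprc. Of the female to male ratios whose interval left out 1, those that crossed 1 were Star (0.681, then 1.25) and Akr1c18 (2.03, then 0.454) under 1.2%, and Hsd3b1 (1.34, then 0.993) without the high barcodes, each with an interval that then included 1. Apart from the 1.2% ceiling, others lost that call without crossing 1: Akr1c18 without the high barcodes (1.54), under the stricter gate (1.62) and with Ptprc (1.69), Hsd3b1 under 5% (1.07), with mixed and ungated barcodes (1.17) and with Ptprc (1.26), and Cyp11b1 with Ptprc (0.766). Among ratios whose main interval included 1, Cyp21a1 (1.15) became 0.849 under 5%, 0.936 without the high barcodes, 0.871 with mixed and ungated barcodes and 0.968 with Ptprc, and under 1.2% Cyp11a1 (0.875) became 1.09 and Fdx1 (0.887) became 1.18. For these changes the cause was not tested, except that leaving out Fdx1 or the high barcodes removes their UMIs. Of 118 alternative values of the main results, 90 stayed within the main interval or, for the count, within 1.5 times. The 1.2% ceiling gave no value for male mast cells or basophils. The gate lead of 1, the Ptprc setting and the mast cell and Aldh1a2-high results were chosen after seeing the data. No paired analysis was possible because each sex had 1 library, and no library could be left out.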

Other observations

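Cyp17a1, the 17-alpha-hydroxylase that the adult mouse adrenal cortex is known to lack, was read as 11 UMIs in the female library, all in lymphocytes. It had 0 UMIs in female macrophages, which allows up to 0.807 CPM, and 0 in all male gated cells, which allows up to 0.375 CPM. It was named after its values were seen.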
